A study of Mus musculus with 21 samples.

Results

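Bulk RNA of mouse quadriceps muscle holds transcripts of muscle fibres and of every other cell in the tissue, among them macrophages, the phagocytes that patrol muscle and clear damaged fibres. 9 transcripts that are widely used as macrophage markers are described here, namely Cd68, Csf1r, Adgre1, Mrc1, Cd163, Lyz2, C1qa, C1qb and C1qc, which are 9 of the 53738 gene symbols measured. They were picked by symbol, and Cd68 was singled out because its level in these same libraries did not follow that of the other 8. The pattern of Cd68, and the levels of all 9 markers in untrained muscle at 72 h, are therefore descriptions without a test.

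The animals were male wildtype C57/Bl6 mice, 22 to 26 weeks old when they were killed. Trained mice had free access to a running wheel for 12 weeks and untrained mice had none. Mice of both kinds then ran a last treadmill test until exhaustion. Muscle was taken 0 h, 6 h or 72 h after that run, and sedentary mice neither trained nor ran. No group trained without the run, so effects of training alone cannot be told apart from a different response to the run. Each of the 7 groups had 3 samples, and p-values measure the spread between these samples only.

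Macrophages depend on the receptor that Csf1r encodes for their survival, and Adgre1 encodes F4/80, an adhesion receptor on their surface. Mrc1 and Cd163 encode scavenger receptors of tissue-resident macrophages, for mannosylated glycoproteins and for haemoglobin bound to haptoglobin. C1qa, C1qb and C1qc encode the chains of complement component C1q, and Lyz2 encodes lysozyme. Cd68 encodes macrosialin, a heavily glycosylated protein of the endosome and lysosome membrane that is abundant in phagocytes, and unlike the receptors it sits mainly inside the cell. In bulk tissue a lower level of such transcripts can come from fewer cells of a type or from less RNA per cell, and the 2 cannot be told apart.

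The sequence just before the start of these genes is shown because the 9 markers share a cell type but did not share a pattern. PU.1 is a transcription factor that macrophages need for their development, and AP-1 is the dimer of Fos and Jun proteins that is induced by stress. The 250 bases before the RefSeq start of each gene (build GRCm38.p6) were searched on both strands for GAGGAA, the core of a PU.1 site (reverse complement TTCCTC), and for TGAGTCA, an AP-1 site (reverse complement TGACTCA). These 2 motifs do not overlap each other. Of 32851 promoters of all genes, 23.3% held the PU.1 core and 4.46% the AP-1 site. Motif counts are given for 6 markers. Of these, 4 (Cd68, Mrc1, C1qb and C1qc) held the PU.1 core and 1 (Cd68) the AP-1 site, while Cd163 and Lyz2 held neither. C1qa and Adgre1 had no promoter sequence at hand, and Csf1r was left out of these counts. Whether Csf1r, C1qa or Adgre1 holds either motif is therefore not reported, and Cd68 is the only AP-1 match among the 6 only. Mrc1 held 3 PU.1 cores, of which the one nearest the start is shown, and the others lie 180 and 167 bases before it. The windows follow 5′ to 3′ along the strand of the gene, with the motif in capitals. A match describes the letters only.
Cd68 PU.1 core, 225 bases before the start, chr11:69666378-69666407, minus strand: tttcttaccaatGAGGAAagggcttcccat
Cd68 AP-1 site, 149 bases before the start, chr11:69666301-69666330, minus strand: taagttccgtgTGAGTCAgctgcctcattc
Cd68 AP-1 site, 24 bases before the start, chr11:69666176-69666205, minus strand: gctgaggtgtcTGAGTCAggtttggggtgg
Mrc1 PU.1 core, 35 bases before the start, chr2:14229367-14229396, plus strand: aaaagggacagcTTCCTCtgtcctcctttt
C1qb PU.1 core, 30 bases before the start, chr4:136886213-136886242, minus strand: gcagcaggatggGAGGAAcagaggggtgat
C1qc PU.1 core, 193 bases before the start, chr4:136893090-136893119, minus strand: gacggcagacacTTCCTCattttggcacac

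Levels are given as TPM, the relative abundance of transcripts scaled for library size and transcript length, so genes can be compared with each other. The depth of the libraries is unknown, because TPM values keep no read counts. Muscle transcripts dominated every library, with Acta1 between 16400 and 22100 TPM. The columns labelled untrained 0 h replicate 1 and trained 0 h replicate 1 held identical values for all 53738 symbols. Thus 20 distinct libraries stand behind 21 samples. Which training state this shared library belongs to is unknown, so either group at 0 h may hold a library of the other state. Values of the markers at 0 h are given with and without it. Untrained 6 h replicate 1 also stood apart for the markers. It was the lowest of its group for 8 of the 8 markers other than Cd68, and for 7 of these it was below every sedentary library. Results of the markers at 6 h are therefore given with and without it.

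In sedentary muscle Lyz2 was the most abundant of the 9 transcripts, at 21.1 ± 0.749 TPM (SD, n = 3). The 3 C1q chains followed within a narrow range, with C1qa at 6.52 ± 0.606, C1qb at 5.83 ± 0.333 and C1qc at 5.34 ± 0.276 TPM. Csf1r stood at 2.75 ± 0.132 TPM. Mrc1 and Cd163 shared a mean of 1.72 TPM, with SDs of 0.166 and 0.103. Cd68 was the eighth of the 9 at 1.29 ± 0.288 TPM, and only Adgre1 was lower, at 0.725 ± 0.0595 TPM. In untrained muscle at 6 h and at 72 h the mean of Cd68 was the fifth, above those of Csf1r, Cd163 and Mrc1.

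Cd68 (chromosome 11, 69555037 to 69557067, minus strand, GRCm39) was high in untrained muscle at 6 h and 72 h and low in the 5 other groups. Its levels in the 3 sedentary libraries were 1.04, 1.6 and 1.22 TPM. At 6 h the untrained libraries held 4.36, 6.82 and 4.01 TPM and at 72 h 5.34, 5.3 and 3.49 TPM. These 6 libraries lay between 3.49 and 6.82 TPM, and the 14 others between 1.04 and 2.41 TPM, so that the sets did not overlap.

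The trained libraries held 1.95, 1.21 and 1.3 TPM of Cd68 at 6 h and 2.01, 1.49 and 1.57 TPM at 72 h, within or above the sedentary range and all below the untrained libraries of those times. At 0 h the untrained libraries held 1.74, 2.03 and 2.41 TPM, all above the sedentary libraries. The trained libraries at 0 h held 1.74, 1.51 and 1.41 TPM, where 1.74 is the shared library in both groups. Without it, the mean of the remaining untrained 0 h libraries was 2.22 ± 0.264 TPM and that of the trained ones 1.46 ± 0.0697 TPM (SD, n = 2).

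Ordered by mean, the groups ran from untrained 6 h (5.06 ± 1.54 TPM) and untrained 72 h (4.71 ± 1.06) through untrained 0 h (2.06 ± 0.332), trained 72 h (1.69 ± 0.282), trained 0 h (1.55 ± 0.172) and trained 6 h (1.49 ± 0.404) to sedentary (1.29 ± 0.288; SD, n = 3 each). The first pair of neighbours overlapped in their libraries, untrained 72 h and untrained 0 h did not, and every later pair of neighbours overlapped. As ratios of group means to the sedentary mean, Cd68 stood at 3.93 in untrained muscle at 6 h and 3.66 at 72 h, against 1.16 and 1.31 in trained muscle.

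**Figure D1:**
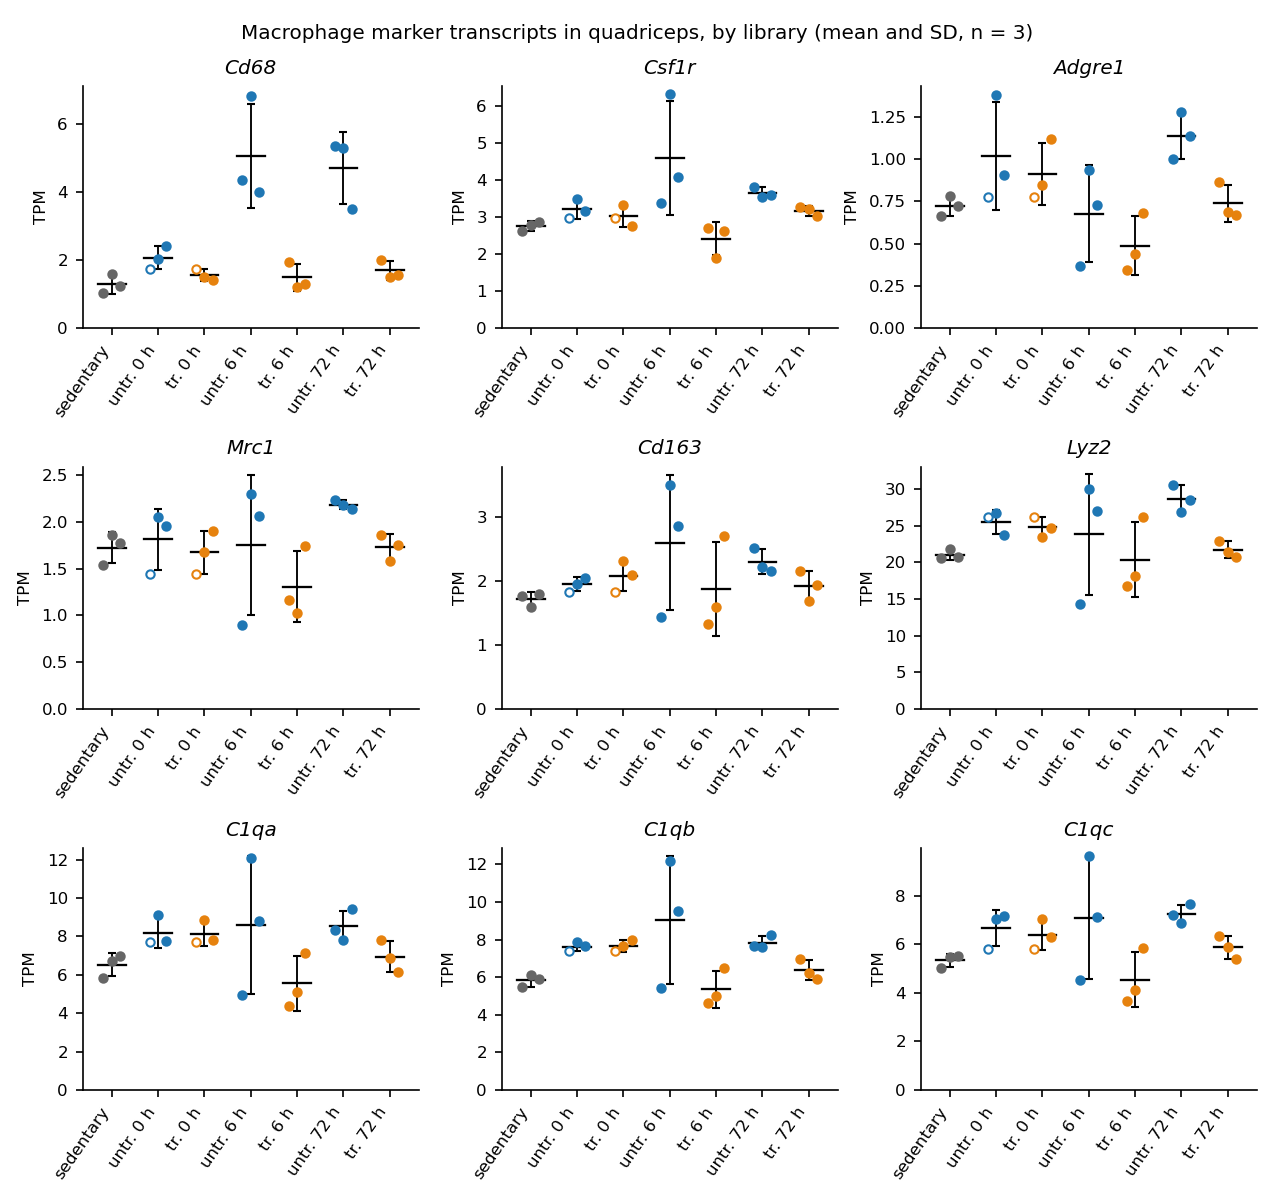
Level of each of the 9 macrophage markers (TPM, linear axis from 0) in every library of the 7 groups (untr., untrained; tr., trained), with the mean and SD of 3 libraries; the open symbol is the 0 h library that both training states share. Cd68 lies between 3.49 and 6.82 TPM in the 6 untrained libraries at 6 h and 72 h and at most at 2.41 TPM elsewhere, whereas the ratio of the highest to the lowest library is 6.56 for Cd68 and at most 4.01 for the other 8.

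Across all 20 libraries the highest level of Cd68 was 6.56 times the lowest. For the others this ratio was 4.01 for Adgre1, 3.35 for Csf1r, 2.75 for C1qa and between 2.12 (Lyz2) and 2.63 (C1qb and Cd163) for the remaining 5. Adgre1 averaged 0.815 TPM, so that its values lie close to the lower limit of the measurement. The 8 markers other than Cd68 moved largely together: over the 20 libraries, Pearson's r on log2(TPM + 0.5) ran from 0.428 to 0.975 among their 28 pairs, with a median of 0.821. Between Cd68 and each of the 8, r ran from 0.282 to 0.801 with a median of 0.472. These coefficients describe libraries that share their groups and their scaling.

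The question at 72 h was which transcripts had stayed changed 3 days after the run. In untrained muscle all 9 markers were above the sedentary mean, Cd68 by far the most. Csf1r, the growth factor receptor, held 3.81, 3.53 and 3.6 TPM against 2.61, 2.77 and 2.87 TPM in sedentary muscle. Lyz2, the lysozyme, held 30.6, 26.9 and 28.5 against 20.6, 21.9 and 20.7 TPM. The scavenger receptor Mrc1 held 2.23, 2.18 and 2.14 against 1.54, 1.86 and 1.77 TPM. In none of these 3 did the groups overlap, and the shifts were small beside that of Cd68.

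The other 5 markers behaved alike at 72 h. Adgre1 held 0.998, 1.28 and 1.14 against 0.665, 0.784 and 0.725 TPM, and Cd163 2.52, 2.22 and 2.16 against 1.77, 1.6 and 1.79 TPM. Of the complement chains, C1qa held 8.33, 7.83 and 9.43 against 5.84, 6.72 and 6.99 TPM. Across the 8 markers, the ratio of group means ran from 1.27 (Mrc1) to 1.57 (Adgre1) with a median of 1.33, where Cd68 stood at 3.66. On the scale of log2(TPM + 0.5), which understates changes of low transcripts, the 8 differences lay between 0.27 and 0.44 and that of Cd68 was 1.53 ± 0.2 (SE).

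In 8 of these 8 markers every untrained library at 72 h was above every sedentary one, where 9.04% of all 11819 transcripts with a mean of at least 1 TPM were separated in this way. The contrast chose the markers, so the count describes them only. A call here needed an adjusted p below 0.05 and a change of at least 1.5-fold. In this comparison 0.00846% of transcripts met both, which is 1 of 11819. That transcript was Cd68 itself, which was singled out by its pattern in these same libraries, so the share is no test of Cd68. Without any 1 library the difference of Cd68 lay between 1.43 and 1.72.

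Marker lists of some other cell types also had differences above 0 in these libraries. All 6 fibro-adipogenic genes were above sedentary muscle in untrained muscle at 72 h, with a median difference of 0.44, and so were all 5 red blood cell genes (0.52) and the 2 tested of 4 mast cell genes (0.28). None of these genes was called (limma), with 2, 4 and 0 at an unadjusted p below 0.05. The summed red blood cell list ran from 410 to 805 TPM against 322 to 450 TPM, and the fibro-adipogenic list from 260 to 329 against 251 to 290 TPM, both overlapping. The summed mast cell list was 5.2 to 6.4 TPM against 4.11 to 5 TPM. The lists of endothelium and muscle fibres had medians of 0 and 0.09. The part of these cells in the 0.27 to 0.44 of the 8 markers was not tested.

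Trained muscle at 72 h stood close to sedentary muscle. The 7 tested markers other than Cd68 differed from sedentary by 0 to 0.17 on the log2 scale, and none was called (limma with Benjamini-Hochberg adjustment, adjusted p 0.722 to 1, and 0 of 7 with an unadjusted p below 0.05; 0.169% of all transcripts were called). Csf1r held 3.26, 3.2 and 3.01 TPM, and its 3 libraries were all above the sedentary ones; this held for 1 of the 8 markers, where 5.63% of all transcripts were separated upwards. Lyz2 held 23, 21.5 and 20.7 TPM and overlapped with sedentary muscle. Cd68 differed by 0.30 ± 0.2 (SE).

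Against untrained muscle of the same time, trained muscle at 72 h was lower in all 9 transcripts. The difference of Cd68 was −1.24 ± 0.2 (SE) and lay between −1.42 and −1.14 without any 1 library. The other 8 differed by −0.40 (Adgre1) to −0.18 (Csf1r). In 8 of these 8 no library of one training state overlapped with the other, where 24.6% of all transcripts were separated downwards and 0.245% were called either way; this contrast also chose the markers. The medians of the fibro-adipogenic, red blood cell and mast cell lists in this comparison were −0.26, −0.25 and −0.30, and their part was not tested. Adgre1 held 0.866, 0.686 and 0.667 TPM in trained muscle, below the 0.998 to 1.28 TPM of untrained muscle.

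**Figure D2:**
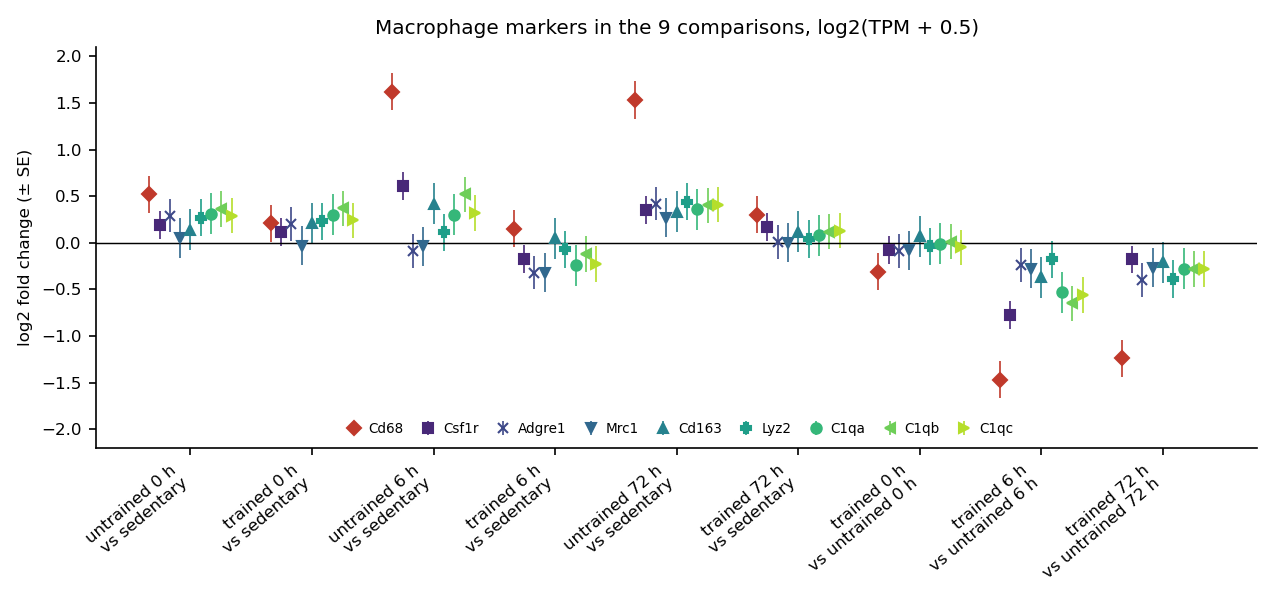
Difference of each marker in the 9 comparisons on the log2(TPM + 0.5) scale, with its standard error from the fit over all groups (Adgre1 from the fit without a filter on low values); the line marks no difference. Cd68 stands apart from the other 8 at +1.62 and +1.53 in untrained muscle at 6 h and 72 h and at −1.47 and −1.24 between training states at the same times.

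At 6 h the markers of untrained muscle parted. Csf1r held 3.38, 6.31 and 4.08 TPM, all above the sedentary 2.61 to 2.87 TPM, and rose by 0.61 ± 0.15 on the log2 scale (SE, limma, Benjamini-Hochberg adjusted p = 0.0185). It was the only one of the 7 tested markers other than Cd68 that was called, where 3.53% of all transcripts were called higher. It was also the only 1 of the 8 whose libraries lay wholly above sedentary muscle, where 11.7% of transcripts did. That call was lost when the fit held only these groups (adjusted p = 0.265), when the fold fell under 1.5 with a pseudocount of 1 (0.54) or another scaling (0.58), and without untrained replicate 2 (0.38, adjusted p = 0.0653), sedentary replicate 1 (0.58, adjusted p = 0.0659) or sedentary replicate 2 (0.61, adjusted p = 0.0538).

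The complement chain C1qb held 5.41, 12.2 and 9.53 TPM at 6 h against 5.47, 6.13 and 5.89 TPM, a difference of 0.52 ± 0.19 (SE) that was not called (limma, adjusted p = 0.095). C1qa, at 4.93, 12.1 and 8.81 TPM, and Cd163, at 1.44, 3.5 and 2.86 TPM, showed the same spread. Lyz2 held 14.4, 30.1 and 27 TPM. In each of these the value of replicate 1 lay below the whole sedentary group and those of the other two libraries above it. For the 6 tested markers that were not called, differences ran from −0.04 (Mrc1) to 0.52 (C1qb), with adjusted p from 0.095 to 0.954.

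Untrained replicate 1 at 6 h is the library in which Cd68 and the others were farthest apart. Relative to the sedentary mean, the median ratio of the other 8 was 0.796 in that library, while Cd68 stood at 3.38. In replicate 2 the same values were 1.83 and 5.3, and in replicate 3 they were 1.34 and 3.11. Without replicate 1, 5 of the 7 tested markers other than Cd68 were called higher, where 4.51% of all transcripts were (limma, Benjamini-Hochberg): C1qb by 0.84 (adjusted p = 0.000245), Csf1r by 0.78 (0.00203), Cd163 by 0.72 (0.013), C1qa by 0.63 (0.023) and C1qc by 0.59 (0.0205). Mrc1 and Lyz2 stayed under the 1.5-fold limit, at 0.27 and 0.43. Replicate 1 was singled out by its low levels of these same markers. Leaving it out therefore favours such calls, and they are descriptions only. The difference of Cd68 was 1.62 ± 0.2 (SE) with all libraries and 1.70 without replicate 1.

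Trained muscle at 6 h showed no such rise. Of the 7 tested markers other than Cd68, 1 had a difference above 0 (Cd163, 0.05) and the lowest was that of Mrc1 (−0.32), and 0 were called (limma, adjusted p 0.375 to 0.921, 0 with an unadjusted p below 0.05; 3.85% of all transcripts were called). Csf1r held 2.69, 1.89 and 2.63 TPM and C1qb 4.63, 4.99 and 6.48 TPM, both overlapping with sedentary muscle. Lyz2 ranged from 16.8 to 26.2 TPM, a wider spread than the 20.6 to 21.9 TPM of sedentary muscle. Cd68 differed by 0.15 ± 0.2 (SE), and by −0.01 to 0.27 without any 1 library.

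Between training states at 6 h, Csf1r was lower in trained muscle by −0.78 ± 0.15 (SE, limma, adjusted p = 0.00712), with no overlap between the 3 libraries of each state. It was the only 1 of the 7 tested markers to be called, and 1.46% of all transcripts were called lower. The libraries of 1 of the 8 markers were separated downwards, where 11.5% of transcripts were. The call was lost in a fit of these 2 groups alone (adjusted p = 0.307) and, by size, without untrained replicate 2 (−0.55, adjusted p = 0.0192). C1qb came next at −0.65 ± 0.19 (limma, adjusted p = 0.0619). All 7 differences were below 0, with a median of −0.53 where the median of all transcripts was −0.04, and the difference of Cd68 was −1.47. Without untrained replicate 1, 6 of the 7 were called lower, where 2.8% of all transcripts were, from −0.96 (Csf1r and C1qb) to −0.59 (Mrc1), and Lyz2 was not, at −0.50. Untrained replicate 1 was singled out by these same markers, so the calls without it are descriptions only. Lyz2 also turned to 0.02 without untrained replicate 2.

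Directly after the run the 7 tested markers other than Cd68 differed from sedentary muscle by 0.05 to 0.36 on the log2 scale in untrained muscle. In trained muscle these differences ran from −0.03 to 0.37. In untrained muscle at 0 h, C1qb held 7.37, 7.85 and 7.64 TPM against 5.47 to 6.13 TPM, a difference of 0.36 ± 0.19 (SE, limma, adjusted p = 0.247). The trained libraries held 7.37, 7.66 and 7.98 TPM, a difference of 0.37 ± 0.19 (adjusted p = 0.213). The 2 groups share the library at 7.37 TPM, and both lay wholly above the sedentary libraries. In untrained muscle 6 of the 8 markers other than Cd68 were separated upwards, where 22.9% of all transcripts were. In trained muscle 5 of 8 were, where 26.3% of transcripts were. Without the shared library these counts were 8 of 8 and 6 of 8, where 27.1% and 34.7% of transcripts were separated, and the difference of C1qb was 0.38 ± 0.22 and 0.40 ± 0.22 (SE, limma, adjusted p = 0.399 and 0.314).

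None of the 7 tested markers other than Cd68 was called at 0 h in either state (limma; 0 with an unadjusted p below 0.05; 3.59% and 3.74% of all transcripts were called). Their median difference was 0.27 in untrained and 0.23 in trained muscle, beside medians of all transcripts of 0.10 and 0.13, which lie in the same direction. Without the shared library the medians were 0.25 and 0.28 beside 0.08 and 0.12, and again none was called (limma, 0 with an unadjusted p below 0.05). Csf1r in trained muscle turned from 0.11 to −0.01 and −0.06 under other scalings. Between the training states at 0 h the 7 differences lay between −0.08 and 0.07 and 0% of transcripts were called, with 143 transcripts at an unadjusted p below 0.05. When the shared library was left out, the 7 lay between −0.12 and 0.11. Cd68 differed by −0.31, and by −0.47 without that library.

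A ratio within each library does not depend on how libraries were scaled. The summed TPM of the 8 markers other than Cd68 was 43.5 to 47.2 in sedentary muscle, and Cd68 was 2.39%, 3.39% and 2.64% of that sum. In untrained muscle at 6 h the sums were 35.3, 77 and 62.1 TPM and Cd68 was 12.3%, 8.86% and 6.45% of them. At 72 h Cd68 was 8.44%, 9.07% and 5.56% of sums between 58.4 and 63.3 TPM. The 6 ratios lay above those of every sedentary and 0 h library.

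In trained muscle the ratio was 5.57%, 3.24% and 2.44% at 6 h and 3.85%, 3.12% and 3.45% at 72 h. Trained replicate 1 at 6 h, at 5.57%, therefore reached the lowest untrained library at 72 h, which was at 5.56%. At 0 h the untrained libraries had ratios of 3.22%, 3.41% and 4.43%, and the trained ones of 3.22%, 2.73% and 2.57%. Relative to the sedentary mean of 2.81% ± 0.522, the mean ratio was 3.28 times as high in untrained muscle at 6 h (9.21% ± 2.95) and 2.74 times at 72 h (7.69% ± 1.87; SD, n = 3). In trained muscle it was 1.34 times at 6 h and 1.24 times at 72 h. Lyz2 makes up much of the sum, and without it the untrained values were 2.99 times at 6 h and 2.77 times at 72 h. Without untrained replicate 1 the ratio at 6 h was 2.73 times the sedentary one.

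**Figure D3:**
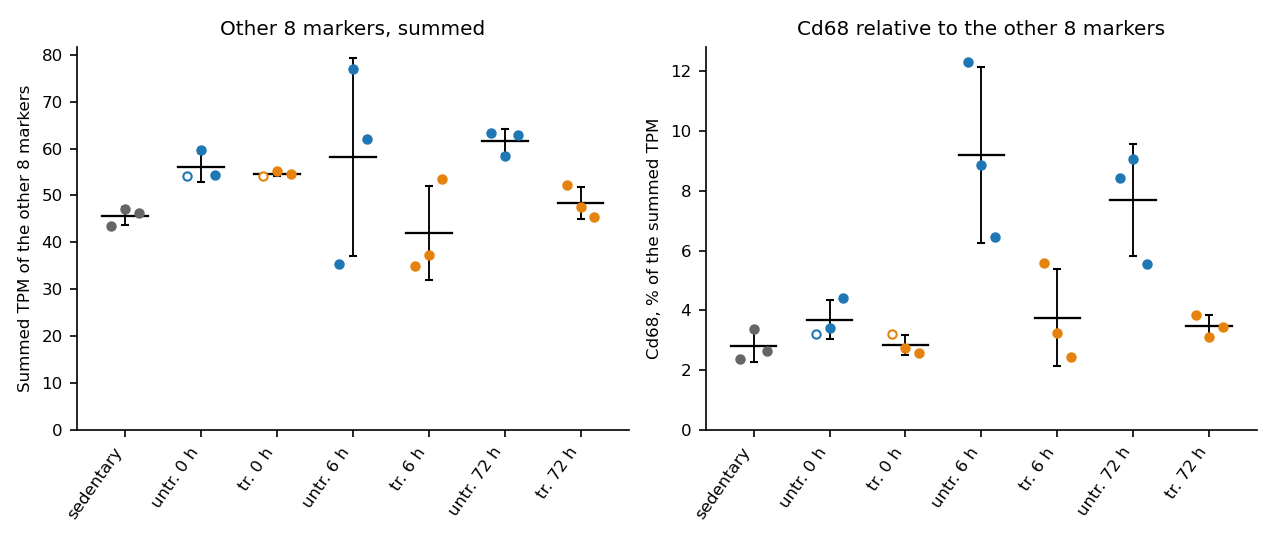
Left, summed TPM of the 8 markers other than Cd68 in each library; right, Cd68 as a percentage of that sum, both with the mean and SD of 3 libraries and axes from 0 (open symbol, the shared 0 h library). The left panel spans 35.3 to 77 TPM in untrained muscle at 6 h, and on the right the untrained libraries at 6 h and 72 h lie between 5.56% and 12.3%.

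Reads of neighbouring genes could bear on the value of Cd68, since the library kit does not mark strand. In the GRCm39 annotation the long non-coding RNA Gm73992 overlaps Cd68 on the opposite strand, so reads of the 2 cannot be told apart, and it has no row in the table. Eif4a1, which encodes an RNA helicase of translation initiation, ends 694 bases from Cd68 on the same strand. It rose in untrained muscle at 6 h by 0.59 ± 0.11 (SE, limma, adjusted p = 0.00303), with 60, 80.1 and 60.8 TPM against 38.9, 47.2 and 46.6 TPM in sedentary muscle. In trained muscle at 6 h its difference was 0.50 (adjusted p = 0.00929, under the 1.5-fold limit), where Cd68 stood at 0.15.

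At 72 h Eif4a1 differed by 0.09 in untrained muscle (limma, adjusted p = 0.962), where Cd68 stood at 1.53. Mpdu1, the nearest protein-coding gene on the other side, which serves in protein glycosylation, was not called in any of the 9 comparisons and held between 3.19 and 5.51 TPM. Mir1934, the nearest annotated gene on that side, was listed at 0. The part of reads from neighbouring genes in the value of Cd68 was not tested.

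By Pearson's r the transcripts most like Cd68 were mostly not of macrophages. Over the 20 libraries and 11818 other transcripts, the highest Pearson's r with Cd68 on log2(TPM + 0.5) were those of Mustn1 (0.882), Gm8818 (0.811), Xirp2 (0.802), Csf1r (0.801) and Rrad (0.777). Mustn1 encodes a small nuclear protein of the musculoskeletal system, Xirp2 an actin-binding protein of striated muscle, Rrad a small GTPase that restrains calcium channels, and Gm8818 is annotated as a processed pseudogene, whose reads may belong to a parent gene. By Spearman's rho Csf1r was the highest of these 5 at 0.857, and the rest ran from 0.678 (Rrad) to 0.758 (Mustn1). Of the other markers, again by Pearson's r, C1qb ranked 93, C1qc 191, Cd163 308, C1qa 540, Lyz2 860 and Mrc1 1042. All these were picked by likeness on these libraries, which share groups and scaling, so the values are descriptions.

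Mustn1 held 186, 289 and 132 TPM in untrained muscle at 6 h and 85.2, 87.1 and 69.6 TPM at 72 h. In sedentary muscle it held 18, 25.6 and 18.6 TPM, and in trained muscle at 72 h 20.3, 22.5 and 18.4 TPM. It was thus high in the same 6 libraries as Cd68, with trained replicate 1 at 6 h, at 73.6 TPM, also within the untrained range of 72 h. Within the 6 untrained libraries at 6 h and 72 h its r with Cd68 was 0.545, and within the other 14 it was 0.396. For Csf1r these values were 0.691 and 0.573, the first being the highest of the 5.

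Rrad differed from Cd68 at the later time. It held 8.15, 19.3 and 9.63 TPM in untrained muscle at 6 h and 2.14, 3.54 and 1.86 TPM at 72 h, where sedentary muscle had 1.06, 1.04 and 1.22 TPM. Xirp2 held 316, 388 and 309 TPM at 6 h and 258, 266 and 246 TPM at 72 h in untrained muscle, against 200 to 211 TPM in sedentary muscle. In both, and also in Mustn1, the untrained 6 h libraries all stood above those of 72 h, while for Cd68 the 2 times overlapped.

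**Figure D4:**
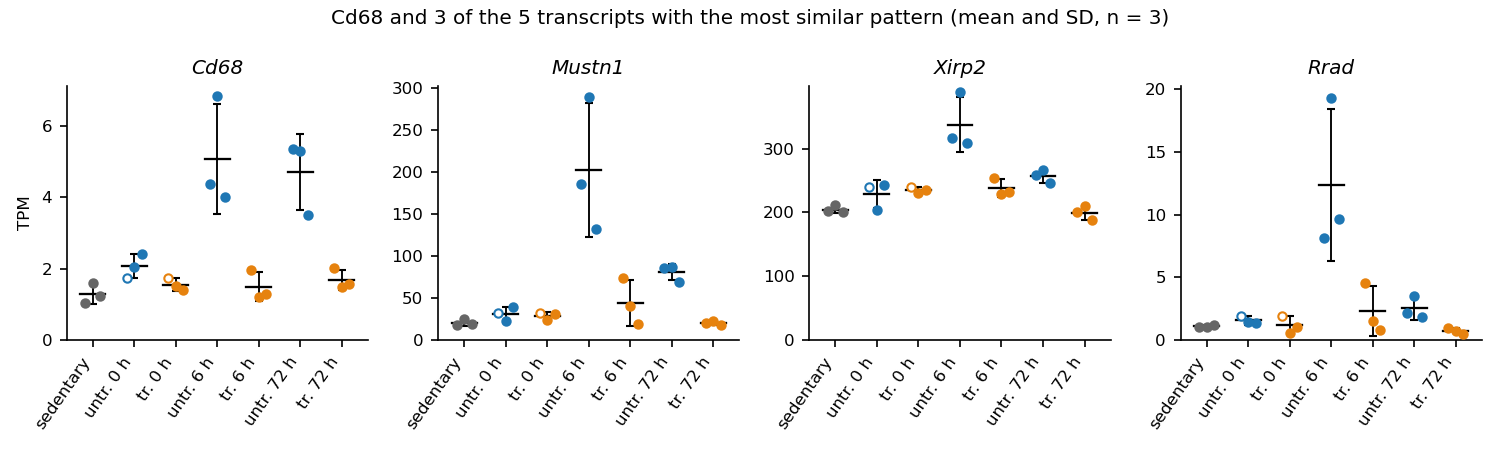
Level (TPM, linear axes from 0) of Cd68 and of Mustn1, Xirp2 and Rrad, 3 of the 5 transcripts with the highest correlation with it, in every library with the mean and SD of 3 libraries (open symbol, the shared 0 h library). Mustn1 runs from 132 to 289 TPM in untrained muscle at 6 h and from 69.6 to 87.1 TPM at 72 h, against 18 to 25.6 TPM in sedentary muscle.

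Further genes of macrophages and of the pathways of the markers were read from 7 lists of 88 genes, 57 of which had a mean of at least 1 TPM. At 72 h none of the 57 was called in untrained muscle, in trained muscle or between them (limma; 10, 4 and 10 had an unadjusted p below 0.05). Of all 11819 transcripts 0.00846%, 0.169% and 0.245% were called in these comparisons, and 682, 1379 and 1769 had an unadjusted p below 0.05. The first of these shares is Cd68 alone, which was singled out on these same libraries and is described only. The median difference of the 57 genes in untrained muscle was 0.18, where that of all transcripts was 0.04. The 18 lysosomal genes were all tested, and none was called at 72 h (4, 1 and 3 with an unadjusted p below 0.05), with a median difference of 0.08 in untrained muscle, where Cd68 stood at 1.53. The 7 tested pan-myeloid genes had a median difference of 0.38 in that comparison, near the 0.27 to 0.44 of the 8 markers.

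At 6 h, 4 of the 57 were called higher in untrained muscle and 0 lower, beside 3.53% and 0.888% of all transcripts. Of these, 3 are described. Hmox1 encodes haem oxygenase 1, which breaks down the haem that Cd163 takes up with haemoglobin. It held 6.61, 10.2 and 9.34 TPM against 2.54, 2.56 and 2.27 TPM, and rose by 1.62 ± 0.15 (SE, limma, adjusted p = 2.61e-06). Npc1, a cholesterol transporter of the lysosome, was the 1 lysosomal gene of 18 past both thresholds, at 0.85 ± 0.1 (limma, adjusted p = 2.56e-05). The tetraspanin Cd63 (0.40, limma, adjusted p = 0.0334), the hexosaminidase subunit Hexa (0.32, adjusted p = 0.0181) and the protease cathepsin D, Ctsd (0.28, adjusted p = 0.0427) passed the adjusted p but were under 1.5-fold. In all, 12 of the 18 lysosomal genes were above sedentary muscle. The calls of Hmox1 and Npc1 held in every alternative in which the genes were tested, and without untrained replicate 1 the differences were 1.80 and 0.94 (limma, adjusted p = 1e-06 and 2.5e-05).

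Il34, a ligand of the Csf1r receptor, held 3.71, 5.31 and 3.57 TPM in untrained muscle at 6 h, against 3.21, 1.65 and 1.85 TPM in sedentary muscle. The trained libraries held 3.84, 3.96 and 4.64 TPM. It rose by 0.80 ± 0.22 in both states (limma, adjusted p = 0.0307 and 0.0292), beside 3.53% and 2.41% of all transcripts called higher. Those calls were lost without any filter on low values (adjusted p = 0.072 and 0.0691), without sedentary replicate 2 (0.139 and 0.122) or 3 (0.103 and 0.0963), without untrained replicate 2 (0.136), without each of the trained replicates (0.0574 to 0.104), and in fits of only the groups compared (0.229 and 0.126). Without untrained replicate 1 the difference in untrained muscle was 0.87 (limma, adjusted p = 0.0346). The other ligand of the Csf1r receptor, Csf1, was not called, at 0.37 (adjusted p = 0.151).

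In trained muscle at 6 h the genes of antigen presentation by MHC class II, which macrophages and dendritic cells use to show peptides to T cells, were lower. All 5 tested genes of the list of 7 fell against sedentary muscle, where 1.44% of all transcripts were called lower. H2-Ab1, a beta chain of MHC class II, held 4.68, 5.47 and 4.94 TPM against 10.9, 13.5 and 12.5 TPM, and fell by 1.21 on the log2 scale (SE 0.2, limma, adjusted p = 0.00115). H2-Aa, its alpha chain, held 7.29, 7.46 and 9.09 TPM against 12.2, 14.2 and 13.4 TPM (−0.71 ± 0.17, adjusted p = 0.0119). Neither gene overlapped between the groups.

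The remaining MHC class II genes called lower were H2-Eb1 (−0.68 ± 0.19, limma, adjusted p = 0.0319), the invariant chain Cd74 (−0.65 ± 0.17, adjusted p = 0.0225) and the peptide loader H2-DMa (−0.63 ± 0.12, adjusted p = 0.00397). In the same libraries none of the 7 tested markers other than Cd68 was called. The H2-Ab1 call held in every alternative. Without trained replicate 1 the other 4 missed a threshold, with H2-Aa at an adjusted p of 0.0535, Cd74 at 0.091, H2-Eb1 at 0.153 and H2-DMa at −0.45. Without sedentary replicates 1, 2 and 3 in turn H2-Eb1 missed it at 0.05, 0.0976 and 0.0874, and Cd74 missed it at 0.0865 and 0.0547 without replicates 2 and 3. H2-DMa was also under the fold limit without sedentary replicate 3 (−0.55) and with a pseudocount of 1 (−0.57). In a fit of only these groups H2-DMa and H2-Eb1 missed the threshold (limma, adjusted p = 0.129 and 0.104), and without a filter on low values Cd74 and H2-Eb1 did (0.0526 and 0.0737).

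Transcripts of other cells in the same libraries stand beside these values. Of the 6 fibro-adipogenic genes the collagen genes Col3a1 (−1.35 ± 0.36, limma, adjusted p = 0.0258) and Col1a1 (−0.91 ± 0.28, adjusted p = 0.048) were called lower. Without 1 library each, Col3a1 missed the threshold without sedentary replicate 2 and trained replicates 1 and 2 (adjusted p 0.0919 to 0.117), and Col1a1 without each library but trained replicate 3 (0.0862 to 0.169). Both missed it in a fit of only these groups (0.162 and 0.0893) and without a filter on low values (0.0612 and 0.11). Of the 11 tested genes of tissue-resident macrophages none was called and 6 had an unadjusted p below 0.05. Among these the chemokine Pf4 was at −0.69 (limma, adjusted p = 0.0682), the folate receptor Folr2 at −0.64 (adjusted p = 0.0693) and the lectin Clec10a at −0.83 (adjusted p = 0.113). The part of these cells in the lower MHC class II genes was not tested.

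In untrained muscle at 6 h none of the 5 differed from sedentary by more than 0.25, with adjusted p from 0.543 to 0.991 (limma). Between the training states all 5 were below 0 (5 of 5 with an unadjusted p below 0.05) and 4 were called lower in trained muscle, where 1.46% of all transcripts were: H2-Ab1 by −0.96 (adjusted p = 0.0108), H2-Eb1 by −0.76 (0.0349), H2-Aa by −0.67 (0.0293) and Cd74 by −0.66 (0.0375). H2-DMa passed the adjusted p but was under 1.5-fold, at −0.58 (limma, adjusted p = 0.013). Without untrained replicate 1 the 4 called genes were at −1.22, −0.90, −0.84 and −0.88 in the same order (limma, adjusted p 0.000697 to 0.0144). None of these 4 was called in a fit of the 2 groups alone (adjusted p 0.252 to 0.307) or without untrained replicate 2 (0.0641 to 0.18). H2-Ab1 kept its call without each other library, and the other 3 did not, with adjusted p up to 0.132 for Cd74, 0.103 for H2-Aa and 0.153 for H2-Eb1, each of these without trained replicate 1. At 72 h none of the 5 was called in any comparison, with H2-Ab1 at 6.58, 9.01 and 9.51 TPM in trained muscle.

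**Figure D5:**
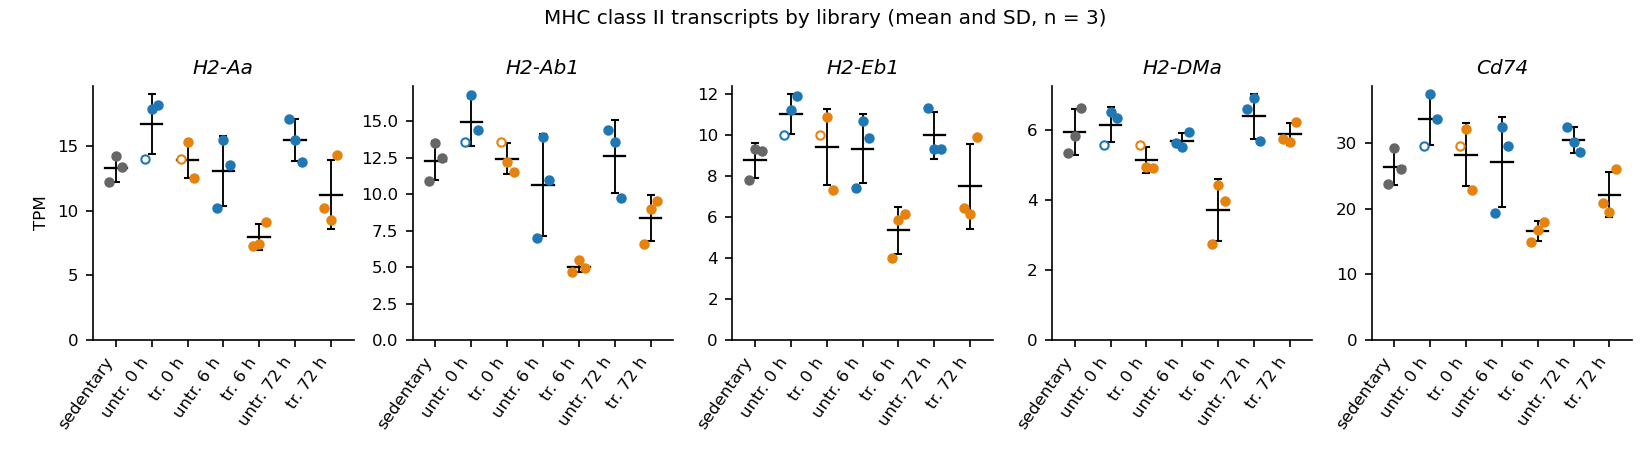
Level (TPM, linear axes from 0) of the 5 tested MHC class II genes in every library of the 7 groups, with the mean and SD of 3 libraries (open symbol, the shared 0 h library). Trained muscle at 6 h has the lowest mean in each panel, for H2-Ab1 at 4.68 to 5.47 TPM against 10.9 to 13.5 TPM in sedentary muscle.

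At 0 h, 3 of the 57 genes were called higher in untrained and 4 in trained muscle, beside 2.97% and 3.39% of all transcripts. Stab1, a scavenger receptor of resident macrophages and endothelium, held 5.87, 3.2 and 6.11 TPM in untrained muscle against 1.86, 2.65 and 2.61 TPM (0.92 ± 0.25, limma, adjusted p = 0.0328). Maf, a transcription factor, differed by 0.61 (limma, adjusted p = 0.00251) and the Fc receptor Fcgr3 by 0.60 (adjusted p = 0.0125). Maf had a mean of 29.2 TPM in sedentary muscle, above the 21.1 TPM of Lyz2, and which cells it came from was not tested. In trained muscle Stab1, Maf, Fcgr3 and Lyve1, a hyaluronan receptor (0.92 ± 0.26, limma, adjusted p = 0.034), were called. None of the 57 was called at 0 h under 2 other scalings of the libraries, and without the shared library 0 were called in untrained and 3 in trained muscle. Without it Stab1, Maf and Fcgr3 were at 0.79, 0.53 and 0.54 in untrained muscle (limma, adjusted p = 0.133, 0.0217 and 0.0754). In trained muscle Stab1 was then at 0.68 (adjusted p = 0.159). In untrained muscle Stab1 also missed the threshold without sedentary replicate 1 (limma, adjusted p = 0.135) or 2 (0.0677) or untrained replicate 3 (0.116), and Maf and Fcgr3 were under the fold limit without sedentary replicate 2 (0.55) or untrained replicate 3 (0.54), and without sedentary replicate 3 (0.53). In trained muscle Maf kept its call without each library, Fcgr3 lost it by size without sedentary replicate 3 (0.57), Stab1 lost it without sedentary replicate 1 or 2 or trained replicate 1 or 2 (adjusted p 0.0857 to 0.16), and Lyve1 without each sedentary replicate and trained replicates 2 and 3 (0.0592 to 0.116).

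Marker lists of neutrophils, T cells, B cells and inflammatory monocytes stayed near the lower limit of the measurement. None of the 7 neutrophil, 6 T cell, 4 B cell or 10 inflammatory monocyte genes had a mean of at least 1 TPM. The summed level of the monocyte list was 1.22 to 1.6 TPM in sedentary muscle, 3.04 to 5.27 TPM in untrained muscle at 6 h, 1.49 to 2.42 TPM in its trained counterpart, and 1.38 to 1.99 TPM in untrained muscle at 72 h. At 0 h it was 2.12 to 6.92 TPM in untrained muscle. The list was thus higher with Cd68 at 6 h and overlapped with sedentary muscle at 72 h. The summed neutrophil list held 0.907 to 1.91 TPM in untrained muscle at 6 h and 1.25 to 1.74 TPM in sedentary muscle. Of the mast cell list 2 of 4 genes were tested, and of the dendritic cell list 1 of 4, whose sum was 1.24 to 1.84 TPM over all groups. No gene of the monocyte or neutrophil list was at 0 in all libraries, and the part of these cells in the level of Cd68 was not tested.

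Lyz2 has a near copy, Lyz1, between which reads may be split. Lyz1 was called in none of the 9 comparisons, with differences from −0.38 to 0.52 (limma, adjusted p 0.102 to 1), so the values of Lyz2 carry that uncertainty.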

How the data were processed

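RNA-seq libraries of whole quadriceps muscle (TruSeq RNA Library Prep Kit v2, which does not mark strand) were made from 21 samples in 7 groups of 3. Per the labels, the submitters' processing notes name STAR 2.7.9, Salmon 1.5.0 and the GRCm39 build. The deposited values are TPM per gene symbol, computed by the authors, with no read counts, and the annotation is not given in the sources used here. All columns were assigned to a sample from their names.

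TPM were analysed as log2(TPM + 0.5) with limma 3.58.1 (lmFit, eBayes with trend) in R 4.3.3, in 1 fit of all 7 groups on 11819 symbols with a mean of at least 1 TPM. p-values were adjusted over these symbols (Benjamini-Hochberg), and a call needed adjusted p < 0.05 and a fold change of at least 1.5. The fit was tested on simulated data. Adgre1 did not pass the filter, so 8 of 9 markers were tested, and its differences come from a fit without it. The 2 identical 0 h columns both stayed in the fit. No p-value is given for Cd68, nor for any marker in the 72 h comparisons that involve untrained muscle. The counts of called markers, planned over all 9, leave these out. The shares of all transcripts called include every tested marker, Cd68 among them.

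The markers and lists were chosen with earlier results of these data known. Named were all 9 markers, Lyz1, the neighbours of Cd68, the 5 transcripts most correlated with it and, per list, at most the 3 largest called changes in a comparison. Csf1, Cd63, Hexa, Ctsd, Pf4, Folr2, Clec10a, Col1a1, Col3a1, Cd74 and H2-DMa were named after their values were seen. The result of 1 called gene is not reported here. Alternatives were other pseudocounts (0.1 and 1), filters and scalings, a fit of only the groups compared, no fold limit, a replicate block, and leaving out each library. Promoter windows are from RefSeq (GRCm38.p6), and gene positions from GRCm39.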

Additional observations from a re-analysis of the deposited data

Results flagged for a closer look

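For 6 transcripts the level at 6 h differed between trained and untrained muscle by the test of that difference (limma, Benjamini-Hochberg adjusted). Without a trained group that did not run, this is no test of the response to the run. On the log2(TPM + 0.5) scale, trained minus untrained, Csf1r differed by −0.78 (adjusted p = 0.00712), H2-Ab1 by −0.96 (0.0108), H2-Eb1 by −0.76 (0.0349), H2-Aa by −0.67 (0.0293), Cd74 by −0.66 (0.0375) and Hmox1 by −0.65 (0.0175). Each of them was lower in trained muscle by the group means. None was called in a fit of these 2 groups alone (adjusted p 0.252 to 0.311) or without untrained replicate 2, the library with the highest levels of the 8 markers.

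Hmox1 rose in both states relative to sedentary muscle, to 6.61, 10.2 and 9.34 TPM in untrained and 5.62, 4.29 and 6.18 TPM in trained muscle. Relative to sedentary muscle, Csf1r was 0.61 in untrained and −0.17 in trained muscle, and H2-Ab1 was −0.25 and −1.21. Groups of 3 samples were too small for a search for single outlying samples.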

How the results depend on the processing

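TPM values give no depth, so counting error could not be weighed, and low transcripts such as Adgre1 are limited by the pseudocount. The difference of Cd68 stayed on its side in untrained muscle at 6 h and 72 h, and between training states at these times, under every alternative that gave it a value (with a mean of at least 5 TPM it was left out). Leaving out each replicate in turn gave it 1.4 to 1.75, 1.43 to 1.72, −1.63 to −1.25 and −1.42 to −1.14. Without the shared 0 h library it was −0.47 between the states at 0 h. Whether replicate numbers pair the samples was not settled. The mean r was 0.0153 over 62 same-numbered pairs and −0.013 over 126 pairs of different number. In each set 4 pairs were above 0.1, and 13 of 21 samples correlated best with their own number. The main fit held no replicate term. With the replicate block, the difference of Csf1r at 6 h between training states remained −0.78 (limma, adjusted p = 0.0132), and of the values reported the block changed 2 calls, those of Stab1 in trained muscle at 0 h (adjusted p = 0.06) and Col1a1 in trained muscle at 6 h (0.0587).

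Of the 7 tested markers other than Cd68, 1 was called in untrained muscle at 6 h and 1 between training states at 6 h. The first count was 0 with a pseudocount of 1 or after rescaling without mitochondrial and the 10 most abundant transcripts, and the second was 2 with median-of-ratios scaling. Both were 0 with a mean of at least 5 TPM, which leaves out Csf1r, and with only the groups compared. Without 1 replicate each they ran from 0 to 5 and from 0 to 6, and the highest were without untrained replicate 1. That library was singled out by its low levels of these same markers.

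Of the 57 related genes, 3 were called in untrained muscle at 0 h, 4 in trained muscle at 0 h, 4 and 8 at 6 h, and 5 between states at 6 h. At 0 h the first was 6 without a filter, 1 with at least 5 TPM, 1 with only the groups compared, and 0 with median-of-ratios scaling, rescaling or without the shared library; the second was 1, 2, 0 and 0 with at least 5 TPM, only the groups compared and the 2 scalings. In untrained muscle at 6 h the count was 2 with at least 5 TPM or only the groups compared and 8 without a fold limit, and in trained muscle it was 5 without a filter or with only the groups compared. Between states it was 3 without a filter or rescaled and 0 with only the groups compared. Without 1 replicate each the counts ran from 0 to 3, 2 to 3, 3 to 6, 3 to 8 and 1 to 13.

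Reversed directions, none of them in a called value, were Csf1r in trained muscle at 0 h (−0.01 and −0.06 under the 2 scalings), Mrc1 in untrained muscle at 6 h (0.27 without replicate 1, in a range from −0.23 to 0.27), Lyz2 in untrained muscle at 6 h (−0.09 and −0.01 without replicates 2 and 3, in a range from −0.09 to 0.43), Lyz2 between states at 6 h (0.02 without untrained replicate 2, in a range from −0.50 to 0.02), Lyz2 in trained muscle at 6 h (0.05 without replicate 1, in a range from −0.26 to 0.05) and Cd163 in trained muscle at 6 h (−0.19 without replicate 3, in a range from −0.19 to 0.22). Cd68 in trained muscle at 6 h, a description, ran from −0.01 to 0.27. Leaving out 1 library gave 1.15 to 1.38 for the ratio of Cd68 to the other markers over sedentary in trained muscle at 72 h. The causes were not tested.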
